A study of Mus musculus with 33 samples.

Results

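The genes described here carry out or regulate the making of fatty acids and their esterification into glycerolipids. They are 34 named mouse genes of the 32285 gene identifiers counted, found by their Ensembl identifiers, and were followed in RNA sequencing libraries of colon organoids and colon tumour lines. Of the 34 genes, 33 had at least 1 CPM (counts scaled to the size of the library) in at least 3 libraries and were tested, and the level of the other, *Thrsp*, is given at the end. By role they comprised 3 genes for the supply of acetyl-CoA and NADPH (*Acly*, *Acss2*, *Me1*), 3 for malonyl-CoA and palmitate synthesis (*Acaca*, *Acacb*, *Fasn*), 9 desaturases and elongases (*Scd1*, *Scd2*, *Fads1*, *Fads2*, *Fads3*, *Elovl1*, *Elovl5*, *Elovl6*, *Elovl7*), 3 regulators (*Srebf1*, *Mlxipl*, *Thrsp*), 3 acyl-CoA ligases (*Acsl3*, *Acsl4*, *Acsl5*), 11 acyltransferases and lipins of the glycerolipid pathway (*Gpam*, *Agpat1* to *Agpat5*, *Lpin1* to *Lpin3*, *Dgat1*, *Dgat2*) and 2 coat proteins of lipid droplets (*Plin2*, *Plin3*).

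The study induced colorectal tumours with light in mini-colons, epithelial tubes grown on microfluidic chips, and compared the tumour cells with cells mutated as organoids or in the mouse. All cells came from mice with the conditional alleles named AKP in the labels, among them *Apc* fl/fl and *Trp53* fl/fl. Control organoids were not induced (6 libraries), organoid AKP were recombined in organoids by OptoCre, a lentiviral Cre recombinase that needs doxycycline and blue light, and were passaged in parallel (6 libraries), and mini-colon AKP #i to #v were lines derived from tumours induced with OptoCre in mini-colons (3 libraries each). In vivo AKP (6 libraries) were organoids from colon tumours of AKP mice whose Cdx2-creERT2 allele, active in the intestinal epithelium, was switched on by a single injection of 18 mg/kg tamoxifen at 8 to 10 weeks of age, with 6 weeks of tumour growth. The study's text names the tumours behind line #i as lumen-enriched and those behind line #v as crypt-enriched, and the symbols of its growth plot mark #ii as lumen-enriched and #iii and #iv as crypt-enriched. After 3 days of growth all organoids spent 24 h in basal medium, which has no added growth factors, and RNA was then taken. Each mini-colon number stands for a single line. The study describes the replicates as cultures. Its methods state that independent OptoCre organoid lines were made anew for each replication. They also state that bulk RNA sequencing used 3 or more independent sample sets. Which libraries, if any, come from separate mice or inductions is not given in the labels, and the p-values reflect no more than the variation among the libraries sequenced.

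In mammalian cells, citrate and acetate supply cytosolic acetyl-CoA, acetyl-CoA carboxylase and fatty acid synthase build palmitate from it with NADPH, and desaturases and elongases turn palmitate and dietary fatty acids into longer and unsaturated chains. Ligases couple fatty acids to coenzyme A, and acyltransferases, lipins and diacylglycerol acyltransferases place them stepwise on glycerol to give membrane lipids and the triglycerides of lipid droplets. Transcription of the early steps is driven by SREBP-1, the product of *Srebf1*, and by the carbohydrate-responsive factor encoded by *Mlxipl*, and colon epithelium both makes lipids and takes them up.

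SREBP proteins bind the sterol regulatory element, and promoter sequences of members that hold its letters are shown as a description. A part of SREBP in the changes below was not tested. In the 300 bases before the start of each gene's Ensembl canonical transcript on GRCm39 (GENCODE M39), the letters TCACNCCAC were searched on both strands. They were found in 272 of 21769 promoters of protein-coding genes, 1.25%, and, among the members shown here, in those of *Acss2*, *Acaca* and *Mlxipl*. The *Acss2* promoter (chr2:155359568-155359867, plus strand) holds 2 matches, 239 and 186 bases before the start, the *Acaca* promoter (chr11:84063648-84063947, plus strand) holds 1 at 98 bases, and the *Mlxipl* promoter (chr5:135135455-135135754, plus strand) holds 1 at 146 bases. For all 3 genes another annotated transcript starts further upstream, so that these stretches lie inside the annotated gene. The sequences run 5′ to 3′ on the strand of the gene, with the matched letters in capitals.
Acss2: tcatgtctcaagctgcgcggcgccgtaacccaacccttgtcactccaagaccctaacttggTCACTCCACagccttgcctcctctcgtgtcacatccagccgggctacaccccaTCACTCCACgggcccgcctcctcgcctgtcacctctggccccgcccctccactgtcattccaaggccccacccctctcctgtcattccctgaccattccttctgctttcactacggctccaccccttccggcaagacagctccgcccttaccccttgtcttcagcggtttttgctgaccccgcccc
Acaca: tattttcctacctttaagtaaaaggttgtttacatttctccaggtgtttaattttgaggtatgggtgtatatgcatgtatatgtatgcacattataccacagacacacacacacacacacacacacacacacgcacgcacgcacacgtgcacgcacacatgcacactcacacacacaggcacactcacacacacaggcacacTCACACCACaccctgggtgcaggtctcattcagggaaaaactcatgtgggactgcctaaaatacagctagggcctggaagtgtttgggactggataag
Mlxipl: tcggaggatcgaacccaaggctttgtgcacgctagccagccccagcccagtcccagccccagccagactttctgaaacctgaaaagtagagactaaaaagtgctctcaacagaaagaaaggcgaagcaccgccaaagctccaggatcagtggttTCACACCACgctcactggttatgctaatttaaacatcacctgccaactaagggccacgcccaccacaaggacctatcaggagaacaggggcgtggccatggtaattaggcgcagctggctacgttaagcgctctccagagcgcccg
The E-box CACGTG was found in 6.95% of all promoters and in those of *Acaca*, *Agpat3*, *Lpin2* and *Dgat2*. The letters CCAAT, which often lie beside sterol regulatory elements, were found in 40.5% of all promoters and in those of 13 members. A match is a description of the sequence and shows no binding in these cells.

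Counts were read from transcript 3′ ends and do not show whether exons of *Apc* or *Trp53* were deleted. Total counts per library ranged from 2438672 to 8256526 (median 3748649). The epithelial marker *Epcam* was detected in every library, at 338 to 1677 CPM, while the summed level of 6 fibroblast markers never exceeded 1.53 CPM and that of 4 adipocyte markers 1.07 CPM. The deposited libraries carry a code letter, E or F, whose meaning is not stated. For the 3 groups with 6 libraries, replicates 1 to 3 are E and 4 to 6 are F. Lines #i, #ii and #iii have only E, and lines #iv and #v only F. Organoid AKP of letter F differed from organoid AKP of letter E at 15.0% of all 13606 genes in the higher and 15.4% in the lower direction, and at 8 and 6 of the 33 members. Each mini-colon line was therefore set beside organoid AKP of its own letter, and the lines with both letters were compared within each letter and averaged. Levels are CPM after TMM scaling, and changes are log2 fold changes with their standard error from edgeR's quasi-likelihood test over all genes, called where the Benjamini-Hochberg adjusted p was under 0.05. Whether groups overlap is given as a description of the libraries, and the share of all genes without overlap was not counted.

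Most members were lower in organoid AKP than in non-induced control organoids, a comparison of mutated with non-induced cells in separate cultures. In order of size, the members that fell more than 2-fold were *Dgat2*, *Acss2*, *Agpat4*, *Fads1*, *Lpin1*, *Acsl3*, *Dgat1*, *Lpin2*, *Lpin3*, *Fads2*, *Me1* and *Scd2*. The genes of palmitate synthesis itself, *Acaca*, *Acacb* and *Fasn*, were not called. *Acsl5* and *Fads3* were the members that rose more than 2-fold. In all, 19 members fell and 7 rose, 57.6% and 21.2% of those tested, against 36.3% lower and 39.6% higher among all genes. The median log2 fold change was -0.47 over the members and 0.053 over all genes. The study expanded tumour organoids without the niche growth factors given to healthy organoids, and where media differed before the basal medium, their effect and that of the mutations cannot be told apart. In bulk RNA, fewer cells of a type and less RNA per cell cannot be told apart.

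**Figure D1:**
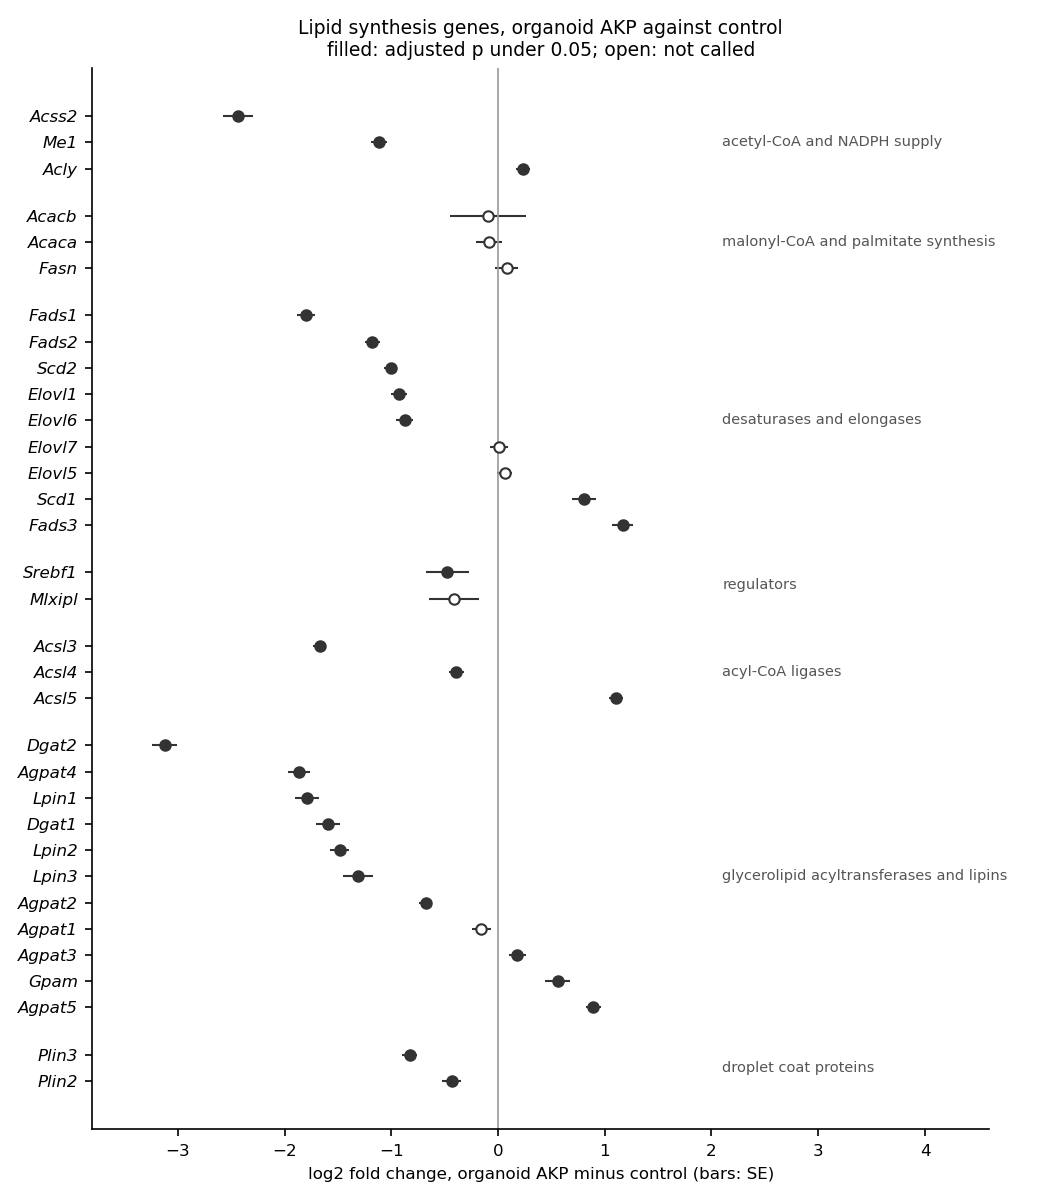
Log2 fold change of organoid AKP against control for each of the 33 tested members, grouped by role, with the standard error as bars (6 libraries a line) and filled points for members past the threshold. *Dgat2* lies lowest at -3.12 and *Fads3* highest at 1.17, and the genes of palmitate synthesis lie near 0, with *Acaca* at -0.08, *Acacb* at -0.09 and *Fasn* at 0.08.

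Among the genes that supply acetyl-CoA and NADPH, *Acss2*, which activates acetate, lay from 24.9 to 79.5 CPM (median 49.6) in control and from 4.85 to 14.4 CPM (median 8.10) in organoid AKP. It was 5.42-fold lower (log2 fold change -2.44 ± 0.14, adjusted p = 1.32e-23). *Me1*, the malic enzyme that makes NADPH, lay from 109 to 139 CPM (median 120.3) in control and from 45.7 to 65 CPM (median 57.2) in organoid AKP. For both genes every control library lay above every organoid AKP library. *Me1* fell by 1.12 on the log2 scale (standard error 0.07, adjusted p = 7.14e-21). *Acly*, which cleaves citrate to acetyl-CoA, was slightly higher over both letters (log2 fold change 0.24 ± 0.06, adjusted p = 0.000948). It was called higher with letter E (0.53) and not called with letter F (-0.05, adjusted p = 0.595). Its call over both letters was lost without control replicate 4 (0.12, adjusted p = 0.0968) or without organoid AKP replicate 3 (0.15, adjusted p = 0.0554). *Fasn*, the fatty acid synthase, lay from 105 to 175 CPM (median 126) in control and from 106 to 168 CPM (median 140.2) in organoid AKP, with groups that overlapped. Its mean change was 0.08 (adjusted p = 0.504), the average of 0.49 with letter E (adjusted p = 0.00863) and -0.33 with letter F (adjusted p = 0.0453).

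Of the 9 desaturases and elongases, 5 fell and 2 rose. *Fads1*, the front-end desaturase that completes arachidonic acid, lay from 92.1 to 127 CPM (median 106) in control and from 21.7 to 42.3 CPM (median 30.0) in organoid AKP. It was 3.48-fold lower (log2 fold change -1.80 ± 0.09, adjusted p = 2.03e-27). *Fads2*, which starts the same pathway, lay from 169 to 295 CPM (median 222) and from 81.3 to 127 CPM (median 96.4), and was 2.26-fold lower (log2 fold change -1.18 ± 0.07, adjusted p = 9.99e-23). The organoid AKP libraries of both genes lay below all control libraries. Their neighbour *Fads3* went the other way, with levels from 12.6 to 29.8 CPM (median 22.2) in control and from 39.2 to 53 CPM (median 44.8) in organoid AKP, a 2.25-fold rise (log2 fold change 1.17 ± 0.10, adjusted p = 2.53e-16). The stearoyl-CoA desaturases, which make monounsaturated fatty acids, also moved apart. *Scd2* lay from 906 to 1938 CPM (median 1426) in control and from 547 to 843 CPM (median 697) in organoid AKP, without overlap (log2 fold change -1.01 ± 0.06, adjusted p = 7.43e-22). *Scd1* was 1.75-fold higher in organoid AKP with overlapping groups (log2 fold change 0.80 ± 0.11, adjusted p = 1.2e-08). *Elovl1* (-0.93) and *Elovl6* (-0.87), elongases of very long and of palmitate-length chains, fell, and *Elovl5* (0.06) and *Elovl7* (0.01) were not called.

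The glycerolipid branch held the largest fall. *Dgat2*, 1 of the 2 enzymes that add the last fatty acid of a triglyceride, lay from 53.8 to 67.2 CPM (median 57.8) in control and from 5.52 to 9.17 CPM (median 6.44) in organoid AKP. It was 8.71-fold lower (log2 fold change -3.12 ± 0.12, adjusted p = 2.08e-32), the largest change among the members in any comparison made here. *Dgat1*, its unrelated counterpart, lay from 31.1 to 44.9 CPM (median 40.1) and from 10.5 to 15.1 CPM (median 13.6), and was 3.01-fold lower (log2 fold change -1.59 ± 0.11, adjusted p = 1.61e-19). All 3 lipins, the phosphatases that supply diacylglycerol, fell as well. *Lpin1* lay from 33.8 to 107 CPM (median 69.5) in control and from 11.6 to 23.5 CPM (median 21.9) in organoid AKP (log2 fold change -1.79 ± 0.12, adjusted p = 5.52e-21). *Lpin2* lay from 95.9 to 128 CPM (median 110.1) and from 30.6 to 48.9 CPM (median 39.3) (log2 fold change -1.48 ± 0.09, adjusted p = 7.69e-23). *Lpin3* lay from 19 to 22.9 CPM (median 20.8) and from 6.02 to 11.3 CPM (median 8.19) (log2 fold change -1.31 ± 0.14, adjusted p = 1.77e-12). None of these 5 genes had overlapping groups.

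The acyltransferases before that step did not move together. *Agpat4*, which acylates lysophosphatidic acid, lay from 48.3 to 62.6 CPM (median 58.5) in control and from 11.2 to 27 CPM (median 13.5) in organoid AKP, 3.64-fold lower (log2 fold change -1.86 ± 0.10, adjusted p = 1.33e-24), and *Agpat2* fell by 0.68 on the log2 scale. Conversely, *Agpat5* (0.89) and the mitochondrial glycerol phosphate acyltransferase *Gpam* (0.56) rose. *Agpat3* was called at 0.18 (adjusted p = 0.0367) but lost its call in 10 of 12 fits without 1 library. Its value fell to 0.03, adjusted p = 0.727 without organoid AKP replicate 3, and *Agpat1* was not called (-0.16). The acyl-CoA ligases split in the same manner. *Acsl3*, the ligase of nascent lipid droplets, lay from 457 to 569.7 CPM (median 506) in control and from 136 to 192 CPM (median 166) in organoid AKP, 3.19-fold lower (log2 fold change -1.67 ± 0.06, adjusted p = 1.21e-33). *Acsl5*, the abundant ligase of intestinal mucosa, lay from 88.2 to 139.8 CPM (median 113) and from 200.1 to 289 CPM (median 237), 2.15-fold higher (log2 fold change 1.10 ± 0.06, adjusted p = 2.4e-23). Neither gene had overlapping groups.

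The droplet coat proteins *Plin3* (-0.83) and *Plin2* (-0.43) fell, the latter and *Acsl4* (-0.39) with overlapping groups. Of the regulators, *Srebf1* was called lower by a narrow margin (log2 fold change -0.47 ± 0.20, adjusted p = 0.0395), and its adjusted p was 0.0512 with the replicate number as a block. It lost the call in 5 of 12 fits without 1 library, at adjusted p between 0.0502 and 0.0686. *Mlxipl* was not called (-0.41, adjusted p = 0.107).

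**Figure D2:**
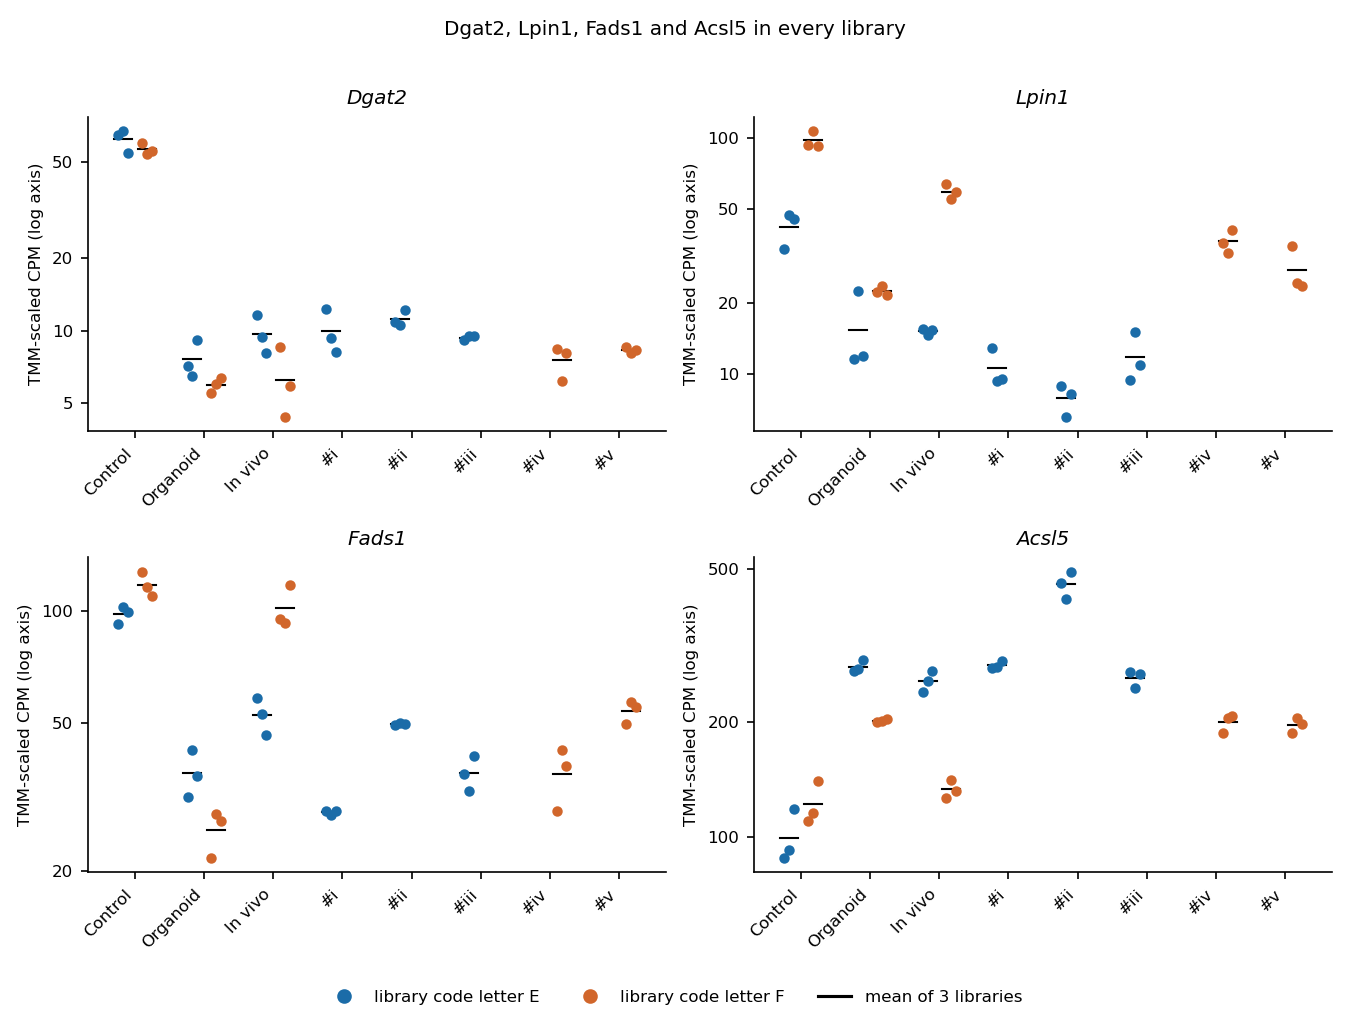
Level in TMM-scaled CPM of *Dgat2*, *Lpin1*, *Fads1* and *Acsl5* in each library of the 8 lines, 1 point a library, with the code letter shown by the marker. All 6 control libraries of *Dgat2*, *Lpin1* and *Fads1* lie above all 6 organoid AKP libraries, and those of *Acsl5* lie below them.

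Markers of the epithelium, of mature colonocytes and of cycling cells moved with these genes. Of 7 epithelial markers 6 were called lower, and their summed level was 9365 to 10779 CPM in control and 3073 to 3556 CPM in organoid AKP. The summed level of 6 colonocyte markers was 8482 to 11274 CPM in control and 2.31 to 32.5 CPM in organoid AKP, with Car4 at no more than 1.92 CPM and Aqp8 at no more than 3.84 CPM in any library. The highest level in any library was 10038.5 CPM for Car1, 771 for Krt20, 402 for Cdhr5 and 67.9 for Slc26a3. The sum in control was thus mostly Car1. The summed level of 3 cycling markers was 224 to 325 CPM in control and 1768 to 2166 CPM in organoid AKP. Their part in the changes of the members was not tested. A wider list of 68 pathway genes, 55 of them tested, had 34 lower and 14 higher members, 61.8% and 25.5% of those tested. The smallest p-values were those of *Lipa*, the lysosomal lipase (-5.92), *Cideb*, a droplet protein of enterocytes and hepatocytes (-6.94), and *Cds1*, which draws phosphatidic acid into phospholipids (-6.02). Of the 12 tested genes of droplets and lipolysis, 10 were lower and 2 higher, in a comparison where 36.3% of all genes were lower and 39.6% higher.

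The change from control differed between letters for some members. The difference of the effects, tested after the data had been seen, was called lower for 11 members and higher for 1, against 8.82% lower and 5.12% higher among all genes. *Agpat4*, *Fads1*, *Fads2*, *Scd2* and *Elovl1* fell further with F, while *Fads3*, *Acsl5* and *Agpat5* rose less. The changes of *Acly*, *Fasn* and *Elovl5* lay above 0 with E and below 0 with F, and *Acsl3* fell less with F. With RLE scaling 10 members were called, and over all genes the higher and lower calls, 696 and 1200 with TMM scaling, were 824 and 937. Among the members called, the largest difference was that of *Agpat4* (-1.15 ± 0.21, adjusted p = 6.23e-05). Its levels were 48.3, 49 and 56.8 CPM in control E, 15.3, 19.8 and 27 in organoid AKP E, 62.6, 60.1 and 62.6 in control F and 11.2, 11.6 and 11.2 in organoid AKP F. It was thus lower in both letters and more so with F. Of the members that fell over both letters, all but *Srebf1* were also called lower within each letter.

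In vivo AKP set against organoid AKP asks how cells transformed in the mouse differ from cells transformed in culture. In vivo AKP had more *Fads1* and *Scd1*, more *Acss2*, *Lpin1*, *Fasn* and *Me1*, and less *Elovl7*, *Agpat2* and *Plin2*. Over both letters 12 members were higher and 7 lower, 36.4% and 21.2% of those tested, against 23.1% and 24.7% of all genes. The median log2 fold change was 0.10 over the members and -0.010 over all genes. However, most of the higher members rested on letter F. With letter E alone 5 members were higher and 9 lower, whereas with letter F alone 15 were higher and 6 lower, while 29.7% and 47.1% of all genes were called in either direction.

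**Figure D3:**
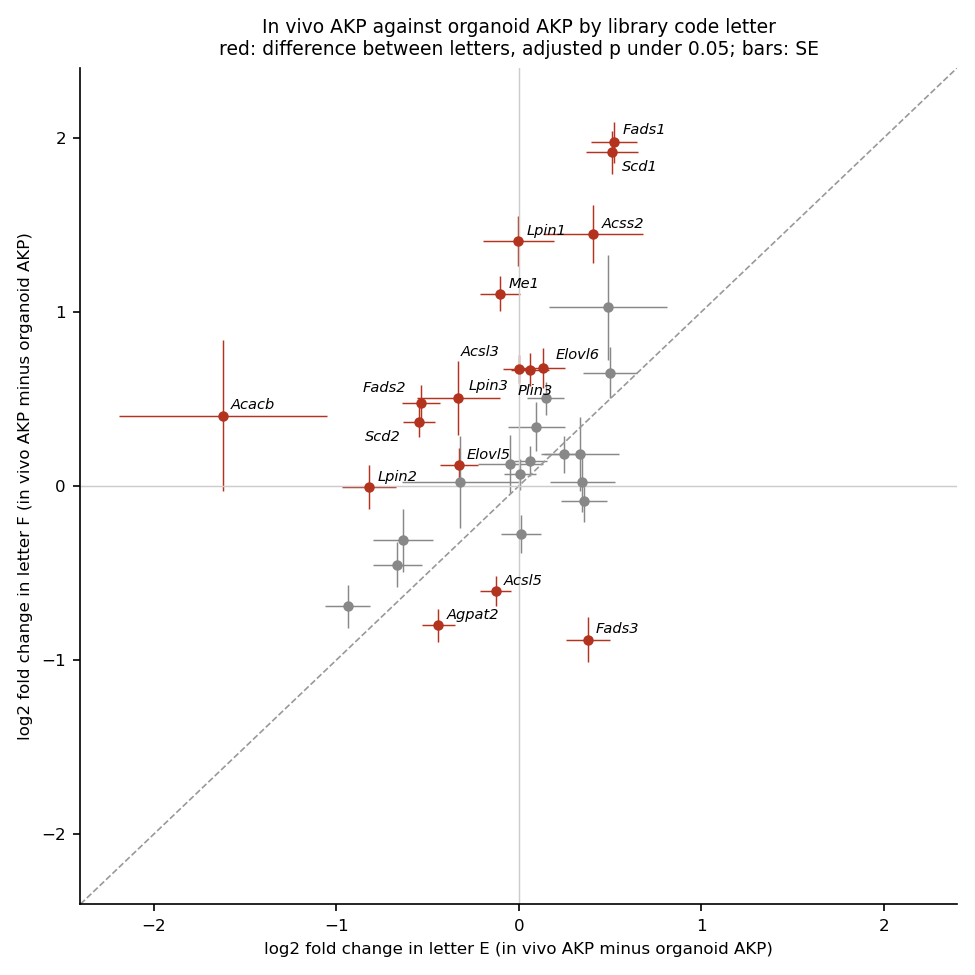
Log2 fold change of in vivo AKP against organoid AKP with letter E (x axis) and with letter F (y axis) for the 33 tested members, with members in red where the difference between letters was called. *Fads1*, at 0.52 and 1.97, and *Scd1*, at 0.51 and 1.92, lie far above the diagonal, and *Fads3*, at 0.38 and -0.88, lies below it.

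The F minus E difference of this effect, tested after the data had been seen, was called for 17 members, 14 with a higher and 3 with a lower effect with F, against 10.5% and 10.3% of all genes. For *Scd1*, in vivo AKP was at 59.5, 63.6 and 52.8 CPM with letter E and at 219, 200.1 and 204 CPM with letter F. Organoid AKP was at 32.7, 45.2 and 45 and at 51.4, 63.2 and 50.2 CPM with the same letters. In both letters every in vivo AKP library lay above the organoid AKP libraries of its letter. The change over both letters was 1.21 ± 0.09, adjusted p = 2.62e-15, and the effect was larger by 1.41 ± 0.19, adjusted p = 2.07e-07 with F. *Fads1* was at 58.4, 52.9 and 46.3 CPM in in vivo AKP E and 94.9, 92.4 and 117 CPM in in vivo AKP F, beside 31.7, 42.3 and 35.9 and 21.7, 28.4 and 27.3 CPM in organoid AKP. Its groups were apart in both letters too (1.25 ± 0.09, adjusted p = 4.65e-19 over both letters, 1.45 ± 0.17, adjusted p = 3.21e-09 for the difference).

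Other members were called higher with letter F and not with letter E. *Acss2* was at 5.87, 8.65 and 7.29 CPM in in vivo AKP E, beside 5.79, 5.85 and 4.85 in organoid AKP E, and at 42.5, 35.6 and 24.2 CPM in in vivo AKP F, beside 12.8, 14.4 and 10.4 in organoid AKP F. Its change was 0.41 with E (adjusted p = 0.273) and 1.45 with F (adjusted p = 1.04e-10). The letter difference of *Acss2* (1.04 ± 0.33, adjusted p = 0.0179) lost its call in 4 of 12 fits without 1 library, with in vivo AKP replicate 4 left out at 0.79, adjusted p = 0.0868. *Lpin1* was at 15.5, 14.6 and 15.4 CPM in in vivo AKP E and 11.6, 22.4 and 11.9 in organoid AKP E, where the groups overlapped. It was at 63.7, 54.8 and 58.9 CPM in in vivo AKP F and 22.2, 23.5 and 21.6 in organoid AKP F, without overlap. Its change was -0.0018 with E and 1.41 with F (difference 1.41 ± 0.25, adjusted p = 1.47e-05). *Me1* likewise was at 56.8, 55.5 and 55.5 CPM in in vivo AKP E beside 54.5, 65 and 60.7 in organoid AKP E, and at 129, 114 and 97.3 CPM in in vivo AKP F beside 45.7, 59.9 and 52.6 in organoid AKP F. Its change was -0.10 with E and 1.10 with F (difference 1.21 ± 0.15, adjusted p = 7.16e-09), so the direction of *Lpin1* and *Me1* over both letters did not hold with letter E.

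*Scd2* and *Fads2* changed in opposite directions in the letters and were not called over both. *Scd2* was at 412, 450.3 and 374 CPM in in vivo AKP E beside 592, 664 and 547 in organoid AKP E, and at 1070.5, 1049.9 and 952 CPM in in vivo AKP F beside 729.8, 843 and 808 in organoid AKP F. It was lower with E (-0.54, adjusted p = 1.45e-06) and higher with F (0.37, adjusted p = 0.000329). *Fads2* was at 69.8, 69.6 and 80.4 CPM in in vivo AKP E beside 90.9, 127 and 101 in organoid AKP E, and at 119, 142 and 125 CPM in in vivo AKP F beside 81.3, 96.7 and 96.1 in organoid AKP F. Its change was -0.54 with E and 0.48 with F (difference 1.02 ± 0.14, adjusted p = 2.23e-07). *Fads3* did the reverse. It was at 57.3, 61.9 and 61 CPM in in vivo AKP E and 24.5, 22.4 and 26.8 CPM in in vivo AKP F, beside 51.7, 44.2 and 43.1 and 45.4, 39.2 and 53 CPM in organoid AKP. It was thus higher with E (0.38) and lower with F (-0.88), a difference of -1.26 ± 0.17, adjusted p = 1.27e-07. The call of *Fads3* over both letters (-0.25) was lost without organoid AKP replicate 1 (-0.18, adjusted p = 0.113) or replicate 6 (-0.19, adjusted p = 0.0745).

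Besides *Scd1* and *Fads1*, the members called in the same direction in both letters were *Fasn*, *Elovl7*, *Agpat2* and *Plin2*. *Fasn* was higher with E (0.50, adjusted p = 0.0112) and with F (0.65, adjusted p = 0.000567), and all in vivo AKP libraries, from 175 to 231 CPM (median 209), lay above all organoid AKP libraries. *Elovl7*, an elongase of saturated long chains, was lower in both (-0.94 and -0.69). Its in vivo AKP libraries lay from 24.4 to 34.8 CPM (median 28.7), and its organoid AKP libraries from 44.1 to 63.7 CPM (median 51). *Agpat2* (-0.44 and -0.80) and *Plin2* (-0.66 and -0.45) were also lower with both letters. *Acsl3*, *Acsl4*, *Plin3* and *Elovl6* were called higher and *Acsl5* lower with F alone, *Agpat4* and *Lpin2* were called lower with E alone, and *Elovl1* was called in neither letter alone. Its call over both (0.21) was lost without organoid AKP replicate 4 (0.18, adjusted p = 0.0606) or in vivo AKP replicate 1 (0.18, adjusted p = 0.0625). *Mlxipl* was called higher in the mean over both letters (log2 fold change 0.76 ± 0.22, adjusted p = 0.00339). Within letters it was called with F (1.03, adjusted p = 0.00368) and not with E (0.49, adjusted p = 0.267). Its levels were low, from 4.42 to 8.95 CPM (median 6.30) in in vivo AKP and from 1.96 to 4.43 CPM (median 4.09) in organoid AKP. The value of 1.96 CPM was that of organoid AKP replicate 5, of letter F. *Srebf1* was not called (-0.15, adjusted p = 0.597), and 1 in vivo AKP library of letter F stood at 23.8 CPM beside 59.6 and 60.0 CPM. *Acacb*, with 263 counts in all libraries together, had the largest letter difference (2.03 ± 0.71, adjusted p = 0.0347), which was lost in 6 of 12 fits without 1 library and was at 1.38, adjusted p = 0.26 without in vivo AKP replicate 4.

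In the pathway list, 13 of 55 tested genes rose and 9 fell in in vivo AKP, 23.6% and 16.4%, beside 23.1% and 24.7% of all genes. The smallest p-values belonged to the electron carriers of the desaturases, *Cyb5a* (0.87) and *Cyb5r3* (-0.70), and to the elongation enzyme *Hacd3* (0.62). *Insig1*, which holds SREBP in the endoplasmic reticulum and is itself an SREBP target, was not called over both letters (-0.25), and its effect was higher with F than with E by 1.59 ± 0.22, adjusted p = 1.48e-06. The summed cycling markers were 1789 to 1984 CPM in in vivo AKP E and 1980 to 2331 CPM in in vivo AKP F, and their part in the letter difference was not tested. The meaning of the letter is not known, so a batch of libraries and a difference between the tumours sampled cannot be told apart.

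The mini-colon lines were each compared with organoid AKP of the same letter. Each is a single line, so an effect of growth in the tube and a difference between lines cannot be told apart. The desaturase *Scd1* was the member called in every one of the 5 lines, lower in #i, #ii and #iii and higher in #iv and #v than in organoid AKP of the same letter. In the 3 lines with letter E, *Scd1*, *Scd2*, *Fads2* and *Acacb* were lower in all and *Fads3* was higher in all. In the 2 lines with letter F, *Scd1*, *Fads1*, *Elovl6* and *Me1* were higher in both and *Lpin2* was lower in both. Lines #i, #ii and #iii share 1 set of 3 organoid AKP libraries and lines #iv and #v another, so the lines of a letter are not independent of each other. The share of all genes called alike in every line of a letter was not counted.

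**Figure D4:**
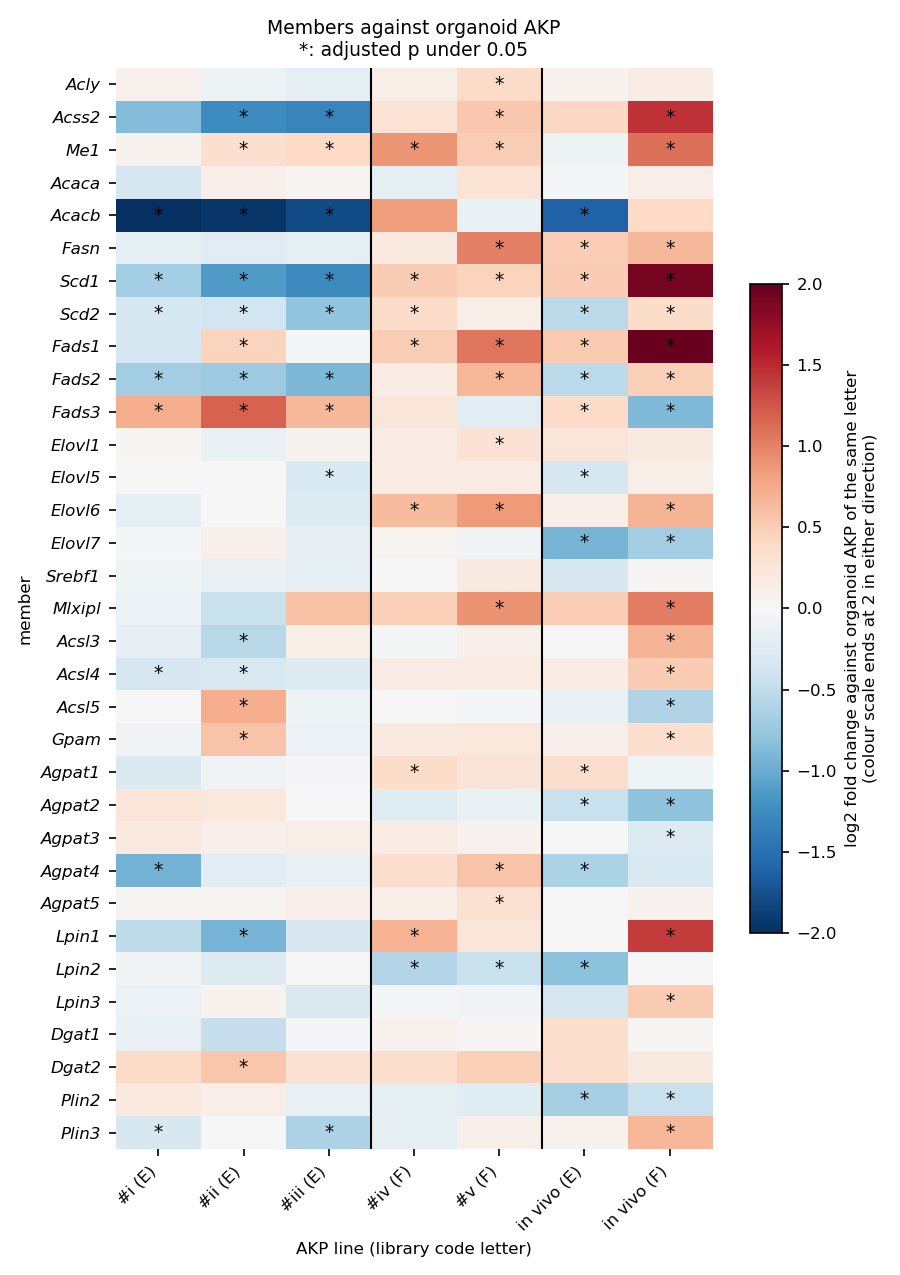
Log2 fold change of mini-colon AKP #i to #v and of in vivo AKP of letters E and F against organoid AKP of the same letter, for the 33 tested members in order of role, with colour from lower to higher. Among the mini-colon lines *Scd1* runs from -1.27 in #iii to 0.51 in #iv, and *Fads3* from -0.23 in #v to 1.17 in #ii.

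Counts of called members were 1 higher and 7 lower in #i (background 4.65% higher and 5.02% lower), 6 and 8 in #ii (12.6% and 12.9%), 2 and 7 in #iii (9.27% and 8.96%), 7 and 1 in #iv (5.57% and 5.39%), and 12 and 1 in #v (12.4% and 12%). The 7 members lower in #i are 21.2% of those tested, the 8 lower in #ii 24.2%, and the 7 lower in #iii 21.2%. The 7 higher in #iv are 21.2% and the 12 higher in #v 36.4%. The median log2 fold change of the members was -0.12, -0.06 and -0.15 in #i, #ii and #iii and 0.16 and 0.21 in #iv and #v, while that of all genes lay between -0.006 and 0.005. The members *Acss2*, *Agpat4*, *Fads2*, *Lpin1*, *Scd1* and *Scd2* were lower in at least 1 E line and higher in at least 1 F line, and 0 members did the reverse. How many of all genes showed either pattern was not counted, so this describes the members without a background. In no line were *Acaca*, *Agpat2*, *Agpat3*, *Dgat1*, *Elovl7*, *Lpin3*, *Plin2* and *Srebf1* called. With organoid AKP of both letters pooled in place of the same letter, 0 members were called for #i, 5 for #iii, 2 for #iv and 5 for #v. For #i the count was 3 without organoid AKP replicate 2 and 5 without #i replicate 1 or replicate 3.

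*Scd1* stood at 23.7, 26.3 and 27.6 CPM in #i, 20.4, 15 and 20.7 in #ii and 15.5, 19.7 and 14.7 in #iii, beside 32.7, 45.2 and 45 in organoid AKP E. All libraries of the 3 lines lay below the 3 organoid AKP libraries. The change was -0.67 ± 0.17, adjusted p = 0.00569 in #i, -1.13 ± 0.17, adjusted p = 8.94e-07 in #ii and -1.27 ± 0.17, adjusted p = 2.34e-07 in #iii. *Scd1* stood at 68, 81.6 and 85.4 CPM in #iv and 69.9, 73.3 and 81.6 in #v, beside 51.4, 63.2 and 50.2 in organoid AKP F, and here all libraries of the lines lay above the organoid AKP libraries. The change was 0.51 ± 0.13, adjusted p = 0.00643 in #iv and 0.45 ± 0.13, adjusted p = 0.00664 in #v. The call in #i was lost without organoid AKP replicate 2 (-0.60, adjusted p = 0.0603), that in #iv without #iv replicate 3 (0.44, adjusted p = 0.0601) and that in #v without #v replicate 3 (0.39, adjusted p = 0.06).

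*Scd2*, the more broadly expressed of these desaturases, was at 474, 468 and 469 CPM in #i, 513, 438 and 429.9 in #ii and 382, 352 and 313 in #iii, beside 592, 664 and 547 in organoid AKP E. The fall was steepest in #iii (-0.78 ± 0.09, adjusted p = 8.61e-10) and was -0.35 in #i and -0.39 in #ii. In #i it was lost without organoid AKP replicate 2 (-0.27, adjusted p = 0.1). In #iv *Scd2* rose, with 1002, 1061 and 1018 CPM beside 729.8, 843 and 808 in organoid AKP F (0.37 ± 0.09, adjusted p = 0.00164), and in #v it was not called (0.14).

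*Acss2* fell in #ii and #iii. Its levels were 2.30, 3.42 and 1.48 CPM in #ii and 1.93, 2.74 and 1.40 in #iii, beside 5.79, 5.85 and 4.85 in organoid AKP E, and the groups were apart. The change was -1.26 ± 0.35, adjusted p = 0.00543 in #ii and -1.32 ± 0.37, adjusted p = 0.00663 in #iii. Without #ii replicate 3 the former was not called (-0.91, adjusted p = 0.0948). In #i, with 2.05, 4.09 and 2.72 CPM, *Acss2* was not called (-0.88, adjusted p = 0.117). In #v it was at 15.2, 19.4 and 19.3 CPM beside 12.8, 14.4 and 10.4 in organoid AKP F (0.54 ± 0.17, adjusted p = 0.0176), a call lost in 3 of 6 fits without 1 library, the weakest at 0.42, adjusted p = 0.116 without organoid AKP replicate 6.

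*Acacb*, the carboxylase whose malonyl-CoA restrains fatty acid import into mitochondria, had only 5 counts in #i, 8 in #ii and 8 in #iii together over 3 libraries, against 23 in organoid AKP E. These were 0.292, 1.17 and 0 CPM in #i, 0.575, 0.263 and 0.82 in #ii and 0.276, 0.914 and 0.702 in #iii, all below 2.38, 1.95 and 2.7 in organoid AKP E. The change was -2.15 ± 0.69, adjusted p = 0.036 in #i, -1.94 ± 0.62, adjusted p = 0.015 in #ii and -1.78 ± 0.62, adjusted p = 0.0357 in #iii. It was called at these few counts, but lost its call in 5, 2 and 5 of 6 fits without 1 library, at adjusted p of up to 0.169, 0.0643 and 0.139.

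**Figure D5:**
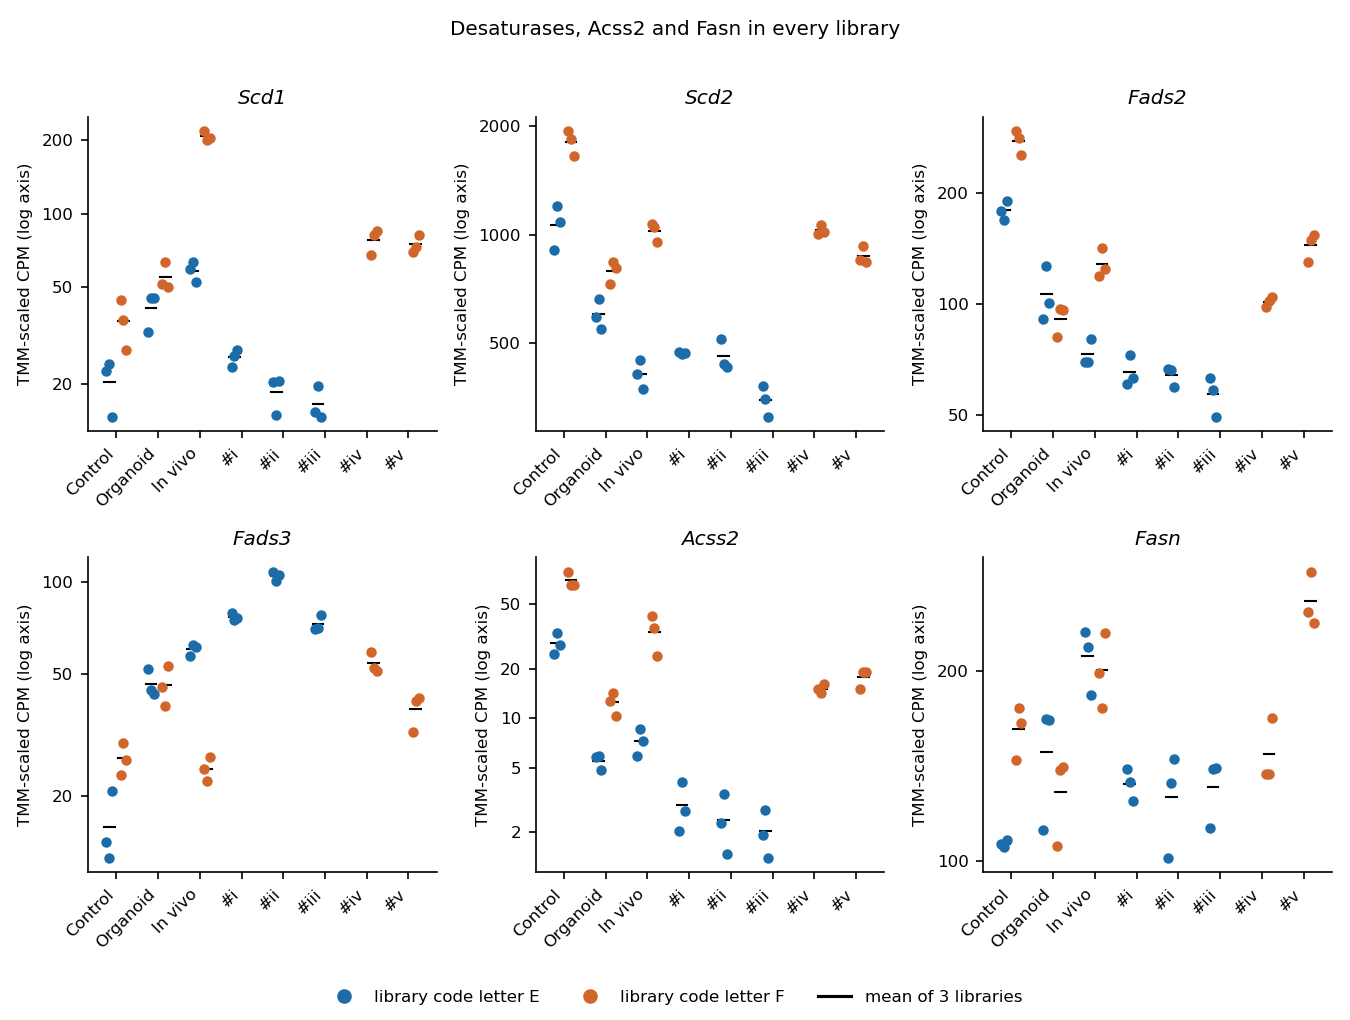
Level in TMM-scaled CPM of *Scd1*, *Scd2*, *Fads2*, *Fads3*, *Acss2* and *Fasn* in each library of the 8 lines, 1 point a library, with the code letter shown by the marker. *Fads3* is highest in #ii at 108, 100.2 and 105 CPM, *Fasn* is highest in #v at 249, 288 and 239 CPM, and *Scd1* is highest in the in vivo AKP libraries of letter F at 219, 200.1 and 204 CPM.

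The 3 fatty acid desaturase genes lie side by side on chromosome 19 of GRCm39, *Fads3* at chr19:10018253-10037928 on the plus strand, *Fads2* at chr19:10038130-10079203 on the minus strand and *Fads1* at chr19:10160167-10174241 on the plus strand, and did not move together. *Fads3*, known as a desaturase of sphingoid bases, was at 79.3, 75 and 76.3 CPM in #i, 108, 100.2 and 105 in #ii and 70.2, 70.8 and 77.9 in #iii, beside 51.7, 44.2 and 43.1 in organoid AKP E. It rose by 0.73 ± 0.12, adjusted p = 1.75e-05 in #i, 1.17 ± 0.12, adjusted p = 6.7e-12 in #ii and 0.65 ± 0.12, adjusted p = 4.36e-05 in #iii, without overlap. *Fads2* went the other way in the same libraries, at 60.5, 72.7 and 63 CPM in #i, 66.7, 66.3 and 59.7 in #ii and 63, 58.3 and 49.5 in #iii beside 90.9, 127 and 101 in organoid AKP E. Its change was -0.70 ± 0.11, adjusted p = 6.6e-06 in #i, -0.73 ± 0.11, adjusted p = 3.16e-07 in #ii and -0.89 ± 0.11, adjusted p = 6.93e-09 in #iii. *Fads1* was higher in #ii only (0.44, adjusted p = 0.0082), at -0.35 in #i and -0.02 in #iii, and the difference between these lines was not tested. In #v, *Fads1* was at 49.6, 56.9 and 55 CPM and *Fads2* at 130.3, 149 and 154 CPM, beside 21.7, 28.4 and 27.3 and 81.3, 96.7 and 96.1 in organoid AKP F. Both rose (1.06 ± 0.12, adjusted p = 2.4e-10 for *Fads1* and 0.66 ± 0.10, adjusted p = 2.28e-07 for *Fads2*), while *Fads3* was not called (-0.23, adjusted p = 0.145). *Fads1* also rose in #iv (0.49 ± 0.13, adjusted p = 0.00846), a call lost in 3 of 6 fits without 1 library, at adjusted p of up to 0.117.

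*Fasn* rose in #v, where it was at 249, 288 and 239 CPM beside 106, 139 and 141 in organoid AKP F. It was 2.01-fold higher (log2 fold change 1.01 ± 0.14, adjusted p = 5.06e-06), and it was called in none of the 4 other lines. In the same line *Acly* rose by 0.38 (adjusted p = 0.000498), so that the citrate-cleaving enzyme and the synthase were both higher. *Elovl6*, which elongates palmitate, was at 73.1, 68 and 76.6 CPM in #iv and 76.2, 95.5 and 80.3 in #v, beside 44.3, 40.7 and 55.9 in organoid AKP F. The groups were apart, and the change was 0.63 ± 0.12, adjusted p = 4.49e-05 in #iv and 0.85 ± 0.11, adjusted p = 1.08e-08 in #v. *Me1* was at 97.3, 101 and 94.3 CPM in #iv and 74.2, 69.9 and 79.2 in #v, beside 45.7, 59.9 and 52.6 in organoid AKP F (0.88 ± 0.10, adjusted p = 1.7e-09 in #iv and 0.49 ± 0.10, adjusted p = 0.000146 in #v). *Mlxipl* was called higher in #v (0.90 ± 0.29, adjusted p = 0.0161). That call rested on organoid AKP replicate 5 at 1.96 CPM, and without it the change was 0.60, adjusted p = 0.181.

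In the glycerolipid branch no member was called in more than 2 of the 5 lines. *Lpin2* was lower in #iv (-0.59 ± 0.14, adjusted p = 0.00161) and in #v (-0.45 ± 0.13, adjusted p = 0.00584), the latter not called without #v replicate 2 (-0.33, adjusted p = 0.101). *Lpin1* was higher in #iv (0.70 ± 0.16, adjusted p = 0.001) and lower in #ii (-0.94 ± 0.22, adjusted p = 0.00107), the latter not called without organoid AKP replicate 2 (-0.55, adjusted p = 0.108). *Agpat4* was lower in #i (-0.94 ± 0.18, adjusted p = 0.000254) and higher in #v (0.57 ± 0.16, adjusted p = 0.0048). *Acsl5* (0.72 ± 0.09, adjusted p = 1.14e-09) and *Gpam* (0.57 ± 0.15, adjusted p = 0.00347) were called higher and *Acsl3* (-0.56 ± 0.09, adjusted p = 2.16e-06) lower in #ii and in none of the 4 other lines, and the difference from those lines was not tested here. Its *Acsl5* libraries, at 461, 418 and 493.2 CPM, lay above all others in the study.

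In the pathway list, the counts of higher and lower genes among 55 tested were 2 and 3 in #i, 7 and 9 in #ii, 3 and 6 in #iii, 5 and 1 in #iv, and 10 and 5 in #v. These are 3.64% and 5.45% in #i, 12.7% and 16.4% in #ii, 5.45% and 10.9% in #iii, 9.09% and 1.82% in #iv and 18.2% and 9.09% in #v, to be read against the shares of all genes given above. *Insig1* was lower in #i (-0.55), #ii (-1.08) and #iii (-1.11), and at 0.24 in #iv and 0.12 in #v, where it was not called. *Chka*, a choline kinase of phospholipid synthesis, was higher in #i (0.40), #ii (0.86) and #iii (0.58). *Hilpda*, an inhibitor of droplet lipolysis, was higher in #ii (0.71), #iii (0.57) and #iv (0.72). *Cyb5r3* was higher in #i (0.29), and the phospholipid enzyme *Cept1* was higher (0.56) and the lipase *Lipe* lower (-0.75) in #iv. In #v the acyl-CoA binding protein *Dbi* (0.69) and the NADPH-producing *Idh1* (0.75) were higher and the fatty acid binding protein *Fabp5* (-1.003) was lower. The summed cycling markers were lowest in #ii, at 1261 to 1405 CPM beside 2000.3 to 2166 CPM in organoid AKP E, and the summed colonocyte markers did not exceed 37.3 CPM in any mini-colon line. Their part in the members' changes was not tested.

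Lines #v and #i carry different letters, so the change of #v against its organoid AKP was compared with the change of #i against its own. *Agpat4*, *Fads1*, *Acss2*, *Fads2*, *Fasn*, *Scd1* and *Elovl6* stood higher in #v on this measure, each by more than 1 log2 unit. Only *Fads3* and *Agpat2* stood lower. In all 13 members were higher and 2 lower, 39.4% and 6.06% of those tested, against 8.38% and 8.10% of all genes. The median difference was 0.29 over the members and 0.018 over all genes. This measure also takes in the difference between organoid AKP of letters E and F. The F minus E difference of the in vivo AKP effect uses the same organoid AKP libraries. Of the members named here, it was called with the same sign for *Fads1*, *Acss2*, *Fads2*, *Scd1*, *Elovl6*, *Fads3* and *Agpat2*. It was not called for *Agpat4* and *Fasn*.

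The difference was 1.36 ± 0.15, adjusted p = 1.17e-10 for *Fads2* and 1.41 ± 0.19, adjusted p = 3.79e-08 for *Fads1*. *Fads1* was at 29, 28.3 and 28.9 CPM in #i, beside 31.7, 42.3 and 35.9 in organoid AKP E, and its values in #v are given above. *Fads2* fell in #i and rose in #v, and *Fads1* was not called in #i and rose in #v. The difference was 1.51 ± 0.24, adjusted p = 2.8e-06 for *Agpat4*, at 9.94, 12.6 and 10.2 CPM in #i and 18.3, 17.8 and 15 in #v, beside 15.3, 19.8 and 27 and 11.2, 11.6 and 11.2 in organoid AKP E and F. It was 1.18 ± 0.21, adjusted p = 0.000171 for *Fasn*, which was at 140.1, 133 and 124 CPM in #i beside 112, 168 and 167 in organoid AKP E, with overlapping groups. It was 1.04 ± 0.17, adjusted p = 2.75e-06 for *Elovl6*, which was at 48.8, 55.2 and 50.7 CPM in #i beside 59.2, 61.1 and 56.6 in organoid AKP E. *Fasn* and *Elovl6* were not called in #i, and *Agpat4* fell in #i and rose in #v.

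For *Acss2* (1.41 ± 0.40, adjusted p = 0.00826) and *Scd1* (1.12 ± 0.21, adjusted p = 7.16e-05) the change was below 0 in #i and above 0 in #v, *Acss2* in #i without a call. *Fads3* differed by -0.96 ± 0.17, adjusted p = 1.37e-05. *Agpat2*, *Me1*, *Lpin1*, *Agpat1* and *Plin3* were called but lost their calls in 6 to 8 of 12 fits without 1 library. *Acsl4* (0.48 ± 0.14, adjusted p = 0.0125) lost it without organoid AKP replicate 2 (0.34, adjusted p = 0.13). Of the pathway list, 9 genes were higher and 3 lower, 16.4% and 5.45%, with the smallest p for *Dbi* (0.89), *Cyb5r3* (-0.80) and *Idh1* (0.89).

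Lines #v and #iv share the letter and a crypt-enriched origin and were compared directly. *Fasn*, *Fads1* and *Fads2* were higher in #v, and *Fads3* and *Me1* were lower. In all 5 members were higher and 3 lower, against 7.76% and 7.94% of all genes, 15.2% and 9.09% of the members. *Fasn* was at 137, 137 and 169 CPM in #iv and at 249, 288 and 239 CPM in #v, without overlap (log2 fold change 0.81 ± 0.15, adjusted p = 0.000281). *Fads1* differed by 0.57 ± 0.12, adjusted p = 0.000577, *Fads2* by 0.52 ± 0.10, adjusted p = 0.000136 and *Fads3* by -0.48 ± 0.12, adjusted p = 0.0031. *Me1* differed by -0.38 ± 0.10, adjusted p = 0.00511, a call lost without #v replicate 2 (-0.32, adjusted p = 0.0545). *Plin3* (0.30), *Acly* (0.26) and *Lpin1* (-0.45) were called but lost their calls in 4 or 5 of 6 fits without 1 library, so that the count was 5 without #iv replicate 1 or without #v replicate 2. With 1 term per line and none for the letter the count was 1. Since both lines have letter F, that model changed the estimate of the spread and not the libraries compared. Of the pathway list, 6 genes were higher and 7 lower, 10.9% and 12.7%, with the smallest p for *Pgd*, a source of NADPH (0.54), *Dbi* (0.48) and *Cept1* (-0.54).

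Line #iii was compared with the mean of #i and #ii, which set a crypt-enriched line against lumen-enriched lines of the same letter. *Acsl3* was higher in #iii, and *Acsl5*, *Plin3* and *Scd2* were lower. In all 3 members were higher and 8 lower, 9.09% and 24.2% of those tested, against 10.7% and 9.03% of all genes. *Acsl3* was at 153, 171 and 150.5 CPM in #iii, beside 137, 129 and 119.8 in #i and 106, 97 and 93.3 in #ii (log2 fold change 0.49 ± 0.08, adjusted p = 1.02e-06). *Acsl5* was at 269, 244 and 267 CPM in #iii, beside 277, 279 and 288 in #i and 461, 418 and 493.2 in #ii (log2 fold change -0.47 ± 0.08, adjusted p = 3.34e-06). The #iii libraries of *Acsl3* lay above all others of the comparison and those of *Acsl5* below. For both genes #i lay nearer to #iii than #ii did, and #iii against #i alone was not tested. *Plin3* was at 49.2, 46.3 and 47.7 CPM, beside 54.4, 64.5 and 56.2 and 63.2, 81.5 and 74.9 (log2 fold change -0.46 ± 0.10, adjusted p = 0.000292), and *Scd2* differed by -0.41 ± 0.08, adjusted p = 6.12e-05, both without overlap.

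The calls of *Mlxipl*, *Agpat4*, *Gpam*, *Plin2*, *Agpat2*, *Fads3* and *Elovl5* in this comparison were lost in some fits without 1 library, *Elovl5* only without #iii replicate 2 (-0.14, adjusted p = 0.397). The count was 7 without #iii replicate 1 or 3, 6 without #iii replicate 2, 7 with only these 3 lines in the model and 0 in a model without the letter. All of these lines have letter E, so the last model changed the estimate of the spread and not the libraries compared. Of the pathway list, 4 genes were higher and 3 lower, 7.27% and 5.45%, with the smallest p for *Mdh1* (-0.50), *Prkaa2*, a catalytic subunit of the energy sensor AMPK (0.78), and *Fabp5* (-0.55).

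Between the letters of organoid AKP itself, *Acss2* was the member with the largest change, at 5.79, 5.85 and 4.85 CPM with E and 12.8, 14.4 and 10.4 with F (1.20 ± 0.24, adjusted p = 0.000108). *Scd2* (0.40) and *Acsl3* (0.32) were also higher with F, and *Agpat4* (-0.89), *Fads1* (-0.50) and *Acsl5* (-0.47) were lower. Control libraries showed such a split too, with *Acss2* at 24.9, 33.6 and 28 CPM with E and 79.5, 65.9 and 65.6 with F, *Lpin1* at 33.8, 46.9 and 45.1 and 93.4, 107 and 92.2, and *Scd2* at 906, 1198 and 1084 and 1938, 1837 and 1654. In each of these 3 genes the control libraries of letter F lay above those of letter E, a difference that was not tested.

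*Thrsp*, a small protein that promotes lipogenesis, was not tested. It had 36 counts in all, with 16 libraries at 0. In control it had 0 counts of 8167307 with letter E and 0 of 20836902 with letter F, which allows up to 0.367 and 0.144 CPM from 3 counts. In vivo AKP had the most, 9 counts with E and 11 with F, at 0.89, 0.384 and 0.384 and 0.737, 1.20 and 0.655 CPM. Among the tested members, *Acaca*, *Agpat3* and *Elovl5* varied least, with all libraries between 16.3 and 33.3, 43.3 and 69.7, and 70.9 and 132 CPM. Some members overlap a gene on the other strand, and because the strand setting of the counting was not stated, reads of *Acss2* and *Gss*, *Me1* and *Rwdd2a*, *Elovl1* and *Cdc20*, *Srebf1* and *Rai1*, *Acsl5* and *Zdhhc6*, *Agpat1* and *Egfl8*, *Agpat2* and *Egfl7*, and *Dgat1* and *Hsf1* may not have been separated.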

How the data were processed

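The 33 libraries were made with the QuantSeq 3′ kit. Reads were aligned to GRCm39 with STAR and counted per gene by the authors, who deposited raw counts without normalization. The counting tool and strand setting are not given in the sources used here. The submitters' processing notes name R 4.1.2, edgeR and limma. Of 32285 identifiers, 611 had no name in GENCODE M39 and held 6.85% of all counts. They entered library sizes and tests as deposited.

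The tools used were R 4.3.3, edgeR (4.0.16), DESeq2 (1.42.0) and limma (3.58.1), with Python 3.11.15, pandas 2.3.3, NumPy 2.4.6 and Matplotlib 3.10.9 for tables and plots. A gene entered the test when 3 or more libraries had 1 CPM or more (13606 genes). TMM-scaled counts were fitted with robust quasi-likelihood in 1 model of 11 combinations of line and library code letter, with 22 residual degrees of freedom, and the Benjamini-Hochberg adjustment ran over all genes tested with a threshold of 0.05. The alternatives were limma-voom (the test of the study), DESeq2, RLE scaling, other filters, models without the letter, with only the lines compared or with a replicate block, each letter alone and leaving out each library. The tests of letter F against letter E effects were chosen after seeing the data.

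The members, the pathway list and the marker lists were chosen with earlier results of these data known. Called members that moved by 1 log2 unit or more are given with their levels in full, the others by counts, ranges and the largest and smallest changes of their role, and of the pathway list the 3 genes with the smallest p per comparison. *Insig1* was added beside these where it is named outside that rule, and *Srebf1*, *Mlxipl* and other members with smaller changes were named after their values were seen. Promoters are printed for 3 members that hold the sterol regulatory element, and 1 further promoter and 1 allele of the mice are not reported here. Replicates of each line and letter differed by more than sampling noise, so that each library was counted once. The replicate numbers, taken from the labels, went with shared deviations for all 3 pairs only among organoid AKP, #ii and #iii. The correlations were 0.472, 0.291 and 0.293 between organoid AKP and #ii, and 0.105, 0.31 and 0.202 between organoid AKP and #iii. They were 0.0845, 0.197 and 0.372 between #iii and #ii. With the number as a block 14 and 9 members were called for #ii and #iii against organoid AKP, as without it. For #iii against #i and #ii, 10 were called with the block and 11 without it. Intervals and limits for 0 counts cover counting error only.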

Additional observations from a re-analysis of the deposited data

Results flagged for a closer look

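Of 101 groups of 6 libraries examined for a single library far from the others, 3 were flagged. Chance flags about 1 in 20 groups where all 6 libraries come from 1 set. Each group here joins 3 libraries of letter E and 3 of letter F, so that rate does not hold for members that differ between the letters. *Mlxipl* in organoid AKP replicate 5 stood at 1.96 CPM while the others lay from 3.80 to 4.43 CPM. *Agpat1* in organoid AKP replicate 1 stood at 43.2 CPM, below the others at 56.8 to 64.3 CPM. *Agpat3* in organoid AKP replicate 3 stood at 67.4 CPM, above the others at 51.0 to 57.0 CPM.

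For 15 members the change from organoid AKP differed between lines #v and #i by the test of the difference itself. It was larger in #v for *Agpat4* (1.51), *Fads1* (1.41), *Acss2* (1.41), *Fads2* (1.36), *Fasn* (1.18), *Scd1* (1.12), *Elovl6* (1.04), *Lpin1* (0.76), *Agpat1* (0.55), *Scd2* (0.49), *Acsl4* (0.48), *Plin3* (0.43) and *Me1* (0.42), and smaller for *Agpat2* (-0.37) and *Fads3* (-0.96), all as differences of log2 fold changes.

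The change of organoid AKP from control differed between the letters, as F minus E, for 12 members. It was below 0 for *Agpat4* (-1.15), *Fads2* (-0.84), *Fasn* (-0.82), *Acsl5* (-0.76), *Fads1* (-0.76), *Fads3* (-0.76), *Agpat5* (-0.76), *Elovl1* (-0.73), *Acly* (-0.58), *Elovl5* (-0.42) and *Scd2* (-0.37), and above 0 for *Acsl3* (0.35).

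The change of in vivo AKP from organoid AKP differed in the same way for 17 members. It was above 0 for *Acacb* (2.03), *Fads1* (1.45), *Lpin1* (1.41), *Scd1* (1.41), *Me1* (1.21), *Acss2* (1.04), *Fads2* (1.02), *Scd2* (0.91), *Lpin3* (0.84), *Lpin2* (0.81), *Acsl3* (0.67), *Plin3* (0.60), *Elovl6* (0.54) and *Elovl5* (0.45), and below 0 for *Agpat2* (-0.36), *Acsl5* (-0.48) and *Fads3* (-1.26). The comparisons of this paragraph and of those before it on lines #v and #i and on organoid AKP against control share the organoid AKP libraries.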

How the results depend on the processing

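Of the 174 member calls over 13 comparisons, 170 kept direction and threshold with RLE scaling and 4 lost the call, while limma-voom kept 166 and lost 8. DESeq2 kept 136 of those it was run on and lost 9, the fit without a filter kept 138 and lost 7, that with at least 5 CPM in 3 libraries kept 141 and lost 1, and that with only the lines compared kept 134 and lost 11. In the last, 7 members were called for #iii against #i and #ii. In a model without the letter, 74 calls were kept and 57 lost. It called 0 members for #i, 5 for #iii, 2 for #iv and 5 for #v against organoid AKP, 1 for #v against #iv and 0 for #iii against #i and #ii. For comparisons among mini-colon lines of the same letter, it changed the estimate of the spread and not the libraries compared. Over all genes that model called 667 for #iv (1491 in the main model), 1440 for #v (3313), 429 for #v against #iv (2136) and 975 for #iii against #i and #ii (2687), and letter E alone called 4043 for in vivo AKP (6499). The sign changed for *Acly* in organoid AKP against control with letter F (-0.053), and with letter E for *Me1* (-0.10), *Lpin1* (-0.0018) and *Fads3* (0.38) in in vivo AKP against organoid AKP. Of these, only *Fads3* was called in the reversed direction. The cause of these changes of sign was not tested.

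Leaving out 1 library gave 24 to 26 called members for organoid AKP against control, 18 to 20 for in vivo AKP, 3 to 8 for #i, 11 to 13 for #ii, 7 to 8 for #iii, 6 to 7 for #iv and 10 to 13 for #v against organoid AKP, 10 to 15 for #v against #i, 5 to 6 for #v against #iv, 6 to 10 for #iii against #i and #ii, 10 to 14 between letters of organoid AKP, and 9 to 12 and 12 to 17 for the letter differences of organoid AKP and in vivo AKP. The low counts were 3 for #i without organoid AKP replicate 2, 5 for #v against #iv without #iv replicate 1 or #v replicate 2, and 6 for #iii against #i and #ii without #iii replicate 2. Over all genes #i had 539 calls without organoid AKP replicate 2 and 854 without #i replicate 3 against 1315, and #iii against #i and #ii had 1788 without #iii replicate 2. In all, 59 member calls were lost without some library and 0 reversed.

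With the replicate number as a block, 25 members were called in organoid AKP against control (*Srebf1* lost, adjusted p = 0.0512), 19 in in vivo AKP against organoid AKP, 7 in #i (*Plin3* lost, adjusted p = 0.0571), 8 in #v against #iv (*Lpin1* lost, adjusted p = 0.0527, and *Scd2* gained, adjusted p = 0.0419) and 10 in #iii against #i and #ii (*Plin2* lost, adjusted p = 0.0576). The pairing changed no other member call. Lines #iv and #v share no replicate numbers with organoid AKP of letter F, so no block was fitted there. Low counts limit *Acacb*, *Mlxipl* and *Thrsp* most.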

Other observations

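Genes of the pathway list also differed between the letters. In organoid AKP, *Insig1* was lower with F (-1.01 ± 0.15, adjusted p = 4.7e-06), *Insig2*, a relative that also retains SREBP, was higher (0.91 ± 0.12, adjusted p = 6.57e-08), the hormone-sensitive lipase *Lipe* was higher (1.48 ± 0.20, adjusted p = 7.12e-08), and *Chka* was lower (-0.83 ± 0.12, adjusted p = 2.42e-07), each with 3 libraries a letter. The F minus E difference of the in vivo AKP effect was positive for *Dbi* (0.95 ± 0.12, adjusted p = 1.57e-08) and *Mdh1* (0.64 ± 0.14, adjusted p = 0.000586), and that of the organoid AKP effect against control was negative for *Dbi* (-0.94 ± 0.12, adjusted p = 8.02e-08) and *Pnpla2* (-0.79 ± 0.14, adjusted p = 7.04e-05). Both differences use the organoid AKP libraries, so the opposite signs for *Dbi* are not independent.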
